A study of Homo sapiens with 6 samples.

Results

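The 3p21 chemokine receptor cluster is a run of related G protein-coupled receptor genes on the short arm of human chromosome 3. The 7 genes described here, CCR9, CXCR6, XCR1, CCR3, CCR1, CCR2 and CCRL2, were selected on their symbols with their fold changes in these libraries already known, out of 36601 genes in the count table, and all 7 were found in it. Their differences between the groups are therefore given as a description, without p-values.

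Chemokine receptors sit in the plasma membrane, bind small secreted chemokines and signal through inhibitory G proteins to the actin cytoskeleton and integrins, so that a leukocyte moves along a chemokine gradient. Receptor kinases and arrestins then switch the signal off. Natural killer (NK) cells use CXCR6 for residence in the liver and CCR1 for migration towards inflammatory chemokines, whereas XCR1 is best known from cross-presenting dendritic cells, which NK cells attract by secreting its ligands XCL1 and XCL2. CCR3 is typical of eosinophils, CCR2 of monocytes and CCR9 of gut-homing lymphocytes, and CCRL2 is an atypical receptor that binds the chemoattractant chemerin without known signalling.

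RNA was sequenced from NK-92 cells, an established human NK lymphoma line, stably carrying either a control short hairpin RNA (shCtrl, 3 libraries) or one against miR155HG, the long non-coding host transcript of miR-155 (shmiR155HG, 3 libraries). Both groups received IL-2 at 1000 U/mL and IL-12 at 10 ng/mL for 12 h. The labels name 1 line per group, and whether the libraries of a group came from separate cultures is not given, so p-values measure the spread between these libraries. The treatment label of shmiR155HG replicates 2 and 3 carries another number in the name of the gene, and their titles were used.

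Libraries held 33454786 to 39157264 counts, with TMM scaling factors between 0.997 and 1.003. MIR155HG itself had 73, 67 and 62 counts in shCtrl and 28, 19 and 10 in shmiR155HG (log2 fold change −1.78 ± 0.43 SE, adjusted p = 0.00450, edgeR quasi-likelihood test). It passed the filter on low counts, given below, only through its level in shCtrl, so this p-value is a description. Of 13 NK cell markers, 12 averaged 1 CPM (count per 1000000 counts) or more, and CD7 did not. Their summed level was 4458 to 4487 CPM in shCtrl and 4073 to 4226 CPM in shmiR155HG. GZMB alone went from 1194 to 542 CPM on average, a wider drop than that of the sum. The sum therefore does not describe the other markers. GZMB, the granzyme B gene, fell by 1.14 on the log2 scale (adjusted p = 7.03e-19), and NCR3 and PRF1 fell by 0.24 and 0.20 (adjusted p = 0.000577 and 0.000419), whereas IL2RB, EOMES, TBX21 and KLRC1 rose by 0.34, 0.32, 0.27 and 0.17 (adjusted p = 1.35e-08, 7.74e-07, 4.99e-06 and 0.0252). Of 5 T cell markers only TRAC averaged 1 CPM or more. The summed level of the 5 was 71.0 to 75.6 CPM in shCtrl and 68.6 to 78.7 CPM in shmiR155HG. The summed level was 0.356 to 1.13 CPM in shCtrl and 0.546 to 0.603 CPM in shmiR155HG for 3 B cell markers, 3.54 to 5.64 and 2.94 to 5.25 CPM for 4 monocyte markers (only CSF1R above 1 CPM), 0 to 0.103 and 0 to 0.119 CPM for 3 dendritic cell markers, and 2.03 to 2.44 and 2.29 to 3.83 CPM for 5 markers of eosinophils, basophils and mast cells (only PRG2 above 1 CPM). CLEC9A and FLT3 of dendritic cells and CPA3 and MS4A2 of mast cells were at 0 in all 6 libraries. The part of other cells in the receptor values was not tested beyond these levels.

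On the hg38 annotation (GENCODE v44) the 7 genes spanned 528.573 kb, from CCR9 (chr3:45884425-45903174, plus strand) to CCRL2 (chr3:46407166-46412997, plus strand). In between lay CXCR6 (chr3:45940933-45948351, plus strand), XCR1 (chr3:46016990-46085825, minus strand), CCR3 (chr3:46130890-46266706, plus strand), CCR1 (chr3:46201711-46208313, minus strand) and CCR2 (chr3:46353864-46360940, plus strand). All are protein-coding, with a coding length of 999 to 1107 nt, and the canonical transcript had 3 exons for CCR9 and 2 for each of the others. CXCR6 lies inside FYCO1, a minus-strand gene for an adaptor of autophagosome transport, and CCR1 lies inside an intron of CCR3 on the opposite strand. Neither pair shares an exon base, while 23 exon bases of CCR9 are shared with LZTFL1, a minus-strand gene for a ciliary trafficking protein. Whether the counting used strand is not given in the sources used here, so intronic reads of the outer gene cannot be told apart from the inner gene where they fall on its exons. The coding sequences of the 7 receptors had 50.04% to 71.0% identical bases pair by pair, with CCR3 and CCR1 the most alike at 71.0%. The longest run of identical bases between CCR3 and CCR1 was 31 nt and how reads that match both were counted was not tested, so CCR3, the far less abundant of the pair, is the less certain.

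The sequences before the starts of XCR1, CXCR6 and CCR1 are shown because these are the receptor genes whose difference between the groups passed the threshold of the fit across all genes. They are bases 250 to 11 before the RefSeq start (GRCh38.p14), read 5′ to 3′ on the strand of the gene, with matches to the STAT dimer motif TTCNNNGAA in capitals. XCR1 is at chr3:46027494-46027733 (minus strand), CXCR6 at chr3:45943214-45943453 (plus strand) and CCR1 at chr3:46208324-46208563 (minus strand). The XCR1 and CXCR6 windows lie inside the GENCODE spans given above, so sequence before the outer end of those spans is not shown. CXCR6 also had another RefSeq start, whose window is not printed.
XCR1: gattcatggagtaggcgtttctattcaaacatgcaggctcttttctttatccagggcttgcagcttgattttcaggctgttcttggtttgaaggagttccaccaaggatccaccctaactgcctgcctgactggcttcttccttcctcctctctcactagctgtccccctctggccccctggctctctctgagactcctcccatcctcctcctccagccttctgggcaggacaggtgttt
CXCR6: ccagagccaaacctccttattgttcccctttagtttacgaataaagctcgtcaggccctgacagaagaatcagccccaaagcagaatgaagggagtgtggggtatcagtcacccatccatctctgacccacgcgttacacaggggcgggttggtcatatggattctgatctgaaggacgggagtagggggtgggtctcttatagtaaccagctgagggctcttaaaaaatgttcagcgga
CCR1: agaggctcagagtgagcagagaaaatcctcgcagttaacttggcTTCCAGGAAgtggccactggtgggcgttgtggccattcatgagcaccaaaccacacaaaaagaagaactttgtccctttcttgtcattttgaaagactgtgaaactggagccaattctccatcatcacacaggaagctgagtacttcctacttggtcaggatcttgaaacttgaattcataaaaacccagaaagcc

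Promoter windows of 250 bases before to 50 after the start were found for all 7 receptors (11 windows, as several genes have more than one start). The STAT motif occurred in CCR1, as TTCCAGGAA at 206 bases before the start, and in one of the windows of CCR9, as TTCCTTGAA at 179 bases before the start. The other 9 windows, those of XCR1 and CXCR6 among them, held none. Of 35116 RefSeq windows of this length, 7.66% held the STAT motif. A T-box motif, AGGTGTGA, was searched on both strands as well, occurred in 0.980% of all windows and had no match in the 11. Such matches are a description of letters and not of binding.

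MIR155HG carries miR-155-5p (chr21:25573983-25574006, plus strand), whose sequence is shown with its seed, bases 2 to 8, in capitals, because the seed gives the site that was searched in the receptor transcripts.
hsa-miR-155-5p: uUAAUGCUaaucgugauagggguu
The complementary site AGCATTA was not found in the 3′ untranslated region of the canonical transcript of CXCR6, XCR1, CCR3, CCR1, CCR2 or CCRL2. CCR9 held a single match, gtgtatatgaAGCATTAattacttgtc, 1200 bases into a region of 1276 nt. Among genes with a region of similar length the share with a site ran from 2.20% (the length of CCR3) to 26.5% (the length of XCR1).

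CCR1 supplied nearly all receptor counts. It took 95.0%, 95.2% and 95.4% of the counts of the 7 genes in shCtrl, and 95.6%, 97.2% and 95.3% in shmiR155HG. Per kb of canonical transcript the mean level in shCtrl was 104.9 CPM for CCR1, 4.98 for CCRL2, 1.21 for CXCR6, 0.886 for CCR3, 0.268 for XCR1 and 0.0978 for CCR2. In shmiR155HG the same genes came to 80.8, 4.05, 0.476, 0.381, 0.0479 and 0.0416 CPM per kb. The order was thus the same in both groups, but CXCR6 and CCR3 overlapped across libraries in each group, and XCR1 and CCR2 overlapped in shmiR155HG. CCR9 was at 0 counts in all 6 libraries, which allows up to 3 counts per library, or 0.0769 to 0.0896 CPM (counting error only).

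**Figure D1:**
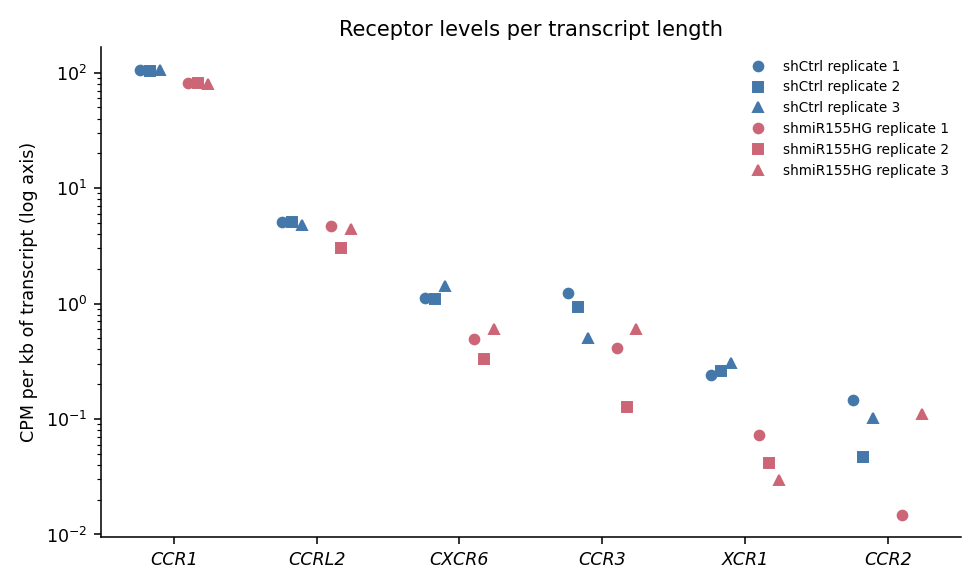
Level of each receptor in CPM per kb of its canonical transcript (log axis), with 1 point per library, shCtrl in blue and shmiR155HG in red. CCR1 lies far above the others at 104.9 and 80.8 CPM per kb on average, and CXCR6 and CCR3 overlap within each group. CCR9 (0 in all libraries) and CCR2 in shmiR155HG replicate 2 (0) cannot be drawn on a log axis.

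Of the 7 receptors, 5 passed the filter on low counts (2 or more libraries above 1 CPM). XCR1, CXCR6 and CCR3 passed it through their level in shCtrl, where 3, 3 and 2 libraries exceeded 1 CPM against 0, 1 and 0 in shmiR155HG, while CCR1 and CCRL2 exceeded 1 CPM in every library. XCR1, CXCR6 and CCR1 were called lower in shmiR155HG and no member was called higher, against 8.02% of the 12263 genes tested called lower and 7.26% called higher. With no filter the same number, 3 of the 6 receptors with any count, were called lower, against 4.86% of 21653 genes. In 4 of the 5 that passed, all but CCR3, every shmiR155HG library lay below every shCtrl library, as it did for 15.6% of genes tested. Because the genes were selected on this comparison, nothing is read from these counts.

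XCR1, the receptor for XCL1 and XCL2, had the widest difference in fold. Its counts were 47, 48 and 60 in shCtrl, and 14, 8 and 5 in shmiR155HG. The level was 1.35 ± 0.169 CPM (SD, n = 3) against 0.241 ± 0.111 CPM, or 17.8% of the shCtrl mean (log2 fold change −2.46 ± 0.50 SE, 5.49-fold lower). The groups were far apart, with a total of 27 counts in shmiR155HG and 155 in shCtrl.

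CXCR6, the receptor for the transmembrane chemokine CXCL16, had counts of 85, 79 and 109 in shCtrl, and 37, 25 and 40 in shmiR155HG. This was 2.38 ± 0.359 CPM against 0.938 ± 0.270 CPM (log2 fold change −1.35 ± 0.37 SE, 2.54-fold lower). The groups did not overlap, with shCtrl replicate 3 the highest and shmiR155HG replicate 2 the lowest library. The call depended on these libraries: CXCR6 was not called without shCtrl replicate 3 (log2 fold change −1.21) or without shmiR155HG replicate 2 (−1.14).

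CCR1, the receptor for CCL3 and CCL5 among others, had counts of 10806, 10027 and 10963 in shCtrl, and 8311, 8209 and 7014 in shmiR155HG. Its level was 277.6 ± 3.21 CPM against 213.7 ± 3.72 CPM (log2 fold change −0.38 ± 0.036 SE, 1.30-fold lower). The fold was small, but the spread within a group was only 1.16% and 1.74% of the mean, and the groups lay well apart.

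CCR3, the eotaxin receptor, had counts of 78, 56 and 32 in shCtrl, and 26, 8 and 33 in shmiR155HG. Its level was 1.45 ± 0.595 CPM against 0.624 ± 0.390 CPM (log2 fold change −1.23 ± 0.49 SE), about the fold of CXCR6. The groups overlapped, because shCtrl replicate 3 lay below shmiR155HG replicate 3, and CCR3 was not called. Without shCtrl replicate 3 it was called lower (log2 fold change −1.51), and without shmiR155HG replicate 2 the difference shrank to −0.81. CCR3 counts were 0.722%, 0.558% and 0.292% of CCR1 counts in shCtrl, and 0.313%, 0.0975% and 0.470% in shmiR155HG. The part of CCR1 reads in the CCR3 counts was not tested.

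CCRL2, the chemerin-binding receptor, had counts of 335, 316 and 318 in shCtrl, and 307, 195 and 253 in shmiR155HG. This gave 8.47 ± 0.276 CPM against 6.89 ± 1.55 CPM (log2 fold change −0.30 ± 0.18 SE), which did not pass the threshold. The groups did not overlap, but shmiR155HG replicate 2 at 5.12 CPM lay apart from replicates 1 and 3 at 7.99 and 7.55 CPM, and without it the difference was −0.12.

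CCR2, the receptor for CCL2, had 20, 6 and 14 counts in shCtrl, and 2, 0 and 13 in shmiR155HG. At 0.345 ± 0.175 CPM and 0.147 ± 0.211 CPM it stayed below the filter, and the groups overlapped (log2 fold change −1.25 ± 1.16 SE in the fit without filter). At this depth no difference in CCR2 was detectable.

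**Figure D2:**
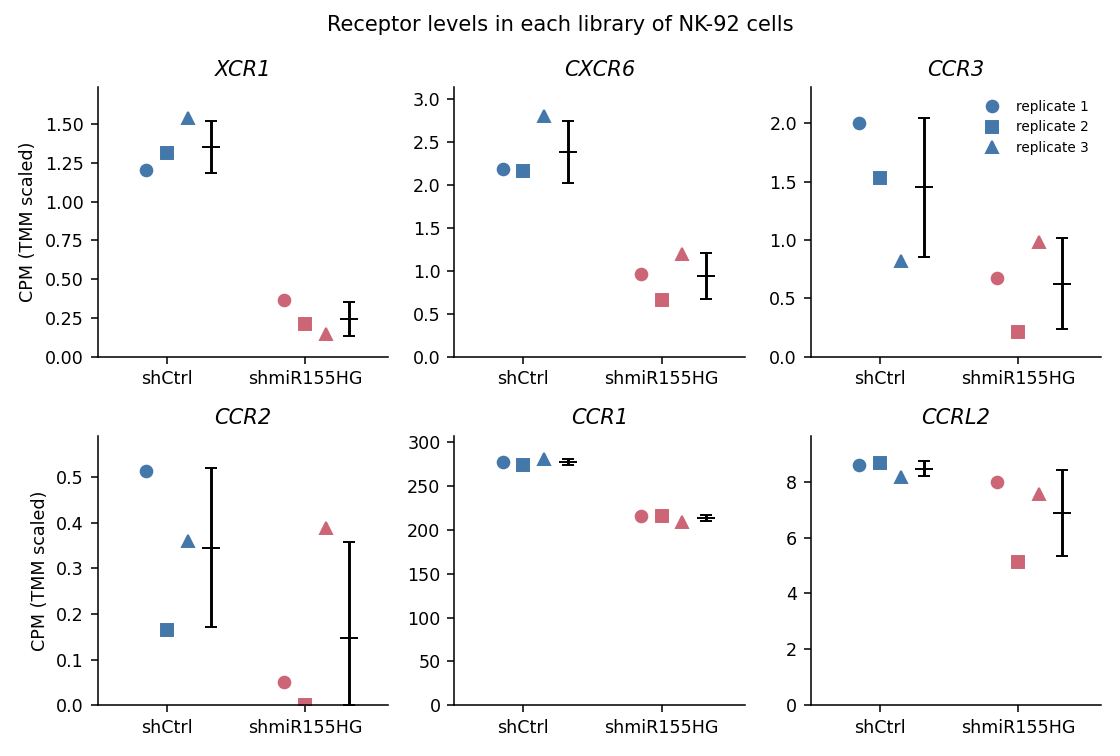
TMM-scaled CPM of 6 receptors in each library (1 point per library, symbols by replicate number), with the mean and SD of each group beside the points; the lower bar of CCR2 in shmiR155HG stops at 0. The groups are apart for XCR1, CXCR6, CCR1 and CCRL2 and overlap for CCR3 and CCR2, and each panel has its own axis from 0.

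The low receptors varied between libraries to different degrees. The chi-square per degree of freedom of the XCR1 counts was 0.784 in shCtrl and 1.82 in shmiR155HG. A value of 1 is sampling noise only if each count stands for 1 read, which is not known here, so these values compare the receptors only. For CXCR6 the chi-square was 2.02 in shCtrl and 2.81 in shmiR155HG, and for CCR2 it was 3.33 and 11.4. For CCR3 it was 9.66 and 9.01, and for CCRL2 it was 0.393 in shCtrl and 13.0 in shmiR155HG. The lowest shmiR155HG library was replicate 2 for CXCR6, CCR3, CCR2 and CCRL2, and replicate 3 for XCR1 and CCR1.

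**Figure D3:**
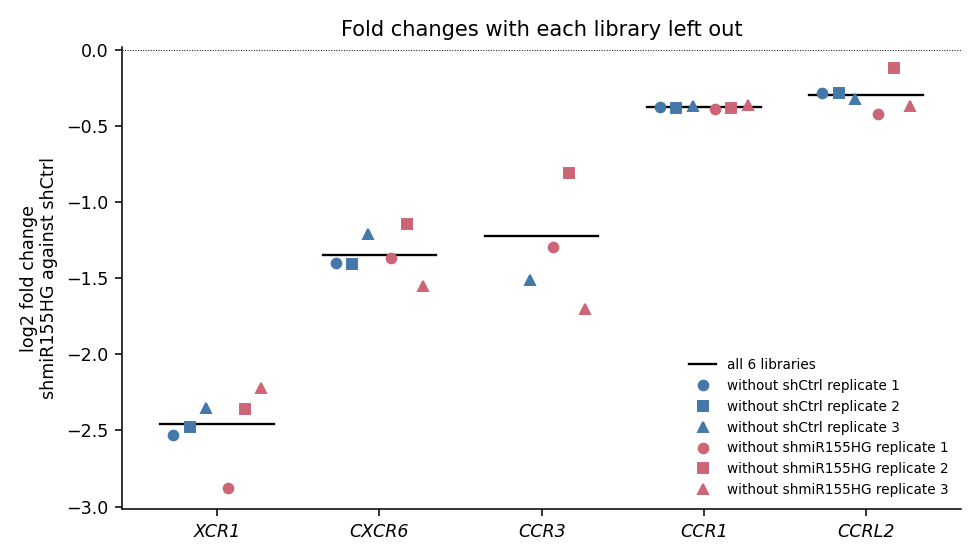
Log2 fold change of each receptor that passed the filter, from all 6 libraries (black line) and with each library left out in turn (points). XCR1 stays between −2.88 and −2.22 and CCR1 between −0.39 and −0.36, whereas CCR3 moves from −1.70 to −0.81; CCR3 fell below the filter without shCtrl replicate 1 or 2, so those points are missing.

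Around the receptors, 24 other genes of the count table lay within 500 kb of the cluster, and 6 of them passed the filter. FYCO1, around CXCR6, was the only neighbour called, beside 8.02% of all genes tested called lower and 7.26% called higher. Its counts were 1582, 1331 and 1601 in shCtrl, and 979, 1172 and 920 in shmiR155HG, or 39.4 ± 2.54 CPM against 27.9 ± 2.66 CPM. FYCO1 fell by 0.50 ± 0.085 SE on the log2 scale (adjusted p = 0.000131), and the groups did not overlap. CXCR6 counts were 5.37%, 5.94% and 6.81% of FYCO1 counts in shCtrl, and 3.78%, 2.13% and 4.35% in shmiR155HG. These shares are a description, since CXCR6 was selected on its difference, and the part of FYCO1 reads in the CXCR6 counts was not tested. LZTFL1, beside CCR9, had 21, 0 and 18 counts in shCtrl and 6, 0 and 0 in shmiR155HG and did not pass the filter. The median log2 fold change of the 6 neighbours tested was −0.21, against 0.00097 over all genes tested, and LARS2, LIMD1 and SACM1L, upstream of the cluster, were at 0.0079, 0.0012 and −0.029.

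**Figure D4:**
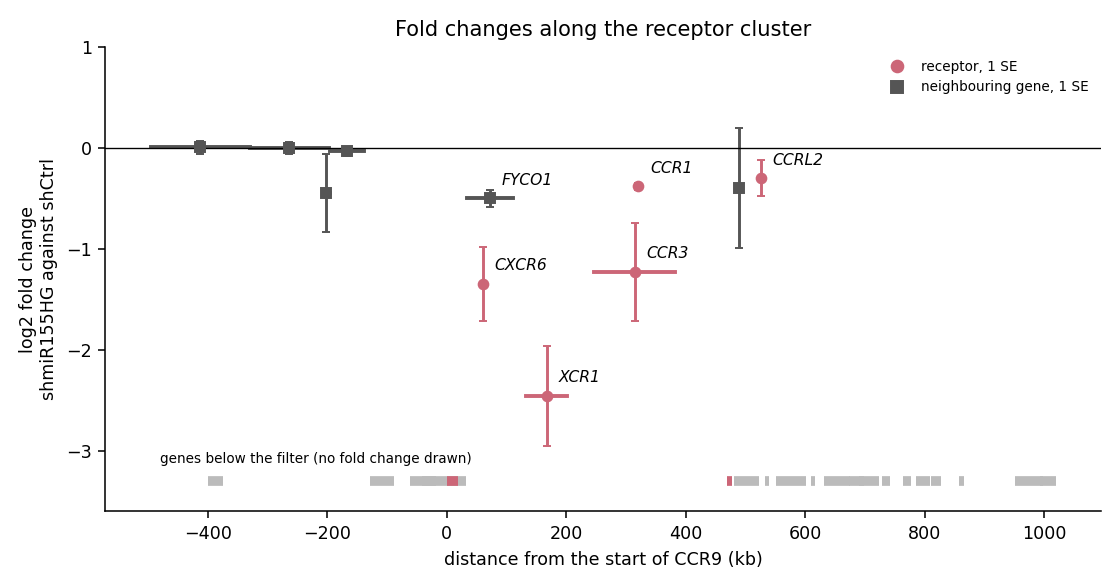
Log2 fold change (1 SE) of the receptors in red and of the neighbouring genes that passed the filter in grey, by distance in kb from the start of CCR9, with horizontal lines for gene length. XCR1 at −2.46 is the lowest, FYCO1 at −0.50 overlaps CXCR6 at −1.35, and bars at the bottom mark genes below the filter.

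Of 21 ligand genes of these receptors, 20 had an entry of their own in the count table and 5 passed the filter. Of these, 2 were called higher and 1 lower, beside 7.26% and 8.02% of all genes tested. XCL1, the ligand of XCR1, had 467, 324 and 396 counts in shCtrl and 568, 658 and 524 in shmiR155HG, that is 10.3 ± 1.57 CPM against 15.9 ± 1.26 CPM (log2 fold change 0.62 ± 0.14 SE, adjusted p = 0.00186). XCL2, a near-identical copy of XCL1, had 656, 638 and 568 against 897, 740 and 748 counts (log2 fold change 0.41 ± 0.11 SE, adjusted p = 0.0111). Both ligand genes were thus called higher in shmiR155HG. Their receptor XCR1 was selected on its difference and passed the filter through shCtrl, and a link between ligands and receptor was not tested.

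Because XCL1 and XCL2 can share reads, they were also summed. Together they had 28.8, 26.3 and 24.7 CPM in shCtrl and 38.1, 36.7 and 38.0 CPM in shmiR155HG, with a two-sided exact permutation p of 0.1, the smallest that 3 against 3 libraries allow. XCL2 was no longer called without shCtrl replicate 3 (log2 fold change 0.34, adjusted p = 0.0547) or without shmiR155HG replicate 1 (0.36, adjusted p = 0.0720). The rise of XCL1 was called in every alternative run.

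CCL3, a ligand of CCR1, was abundant at 1215 ± 68.0 CPM in shCtrl and 1099 ± 52.9 CPM in shmiR155HG (log2 fold change −0.14 ± 0.039 SE, adjusted p = 0.0136). It was called lower, but shmiR155HG replicate 3 at 1153 CPM lay above shCtrl replicate 3 at 1137 CPM, so the groups overlapped. The call was lost on leaving out shCtrl replicate 1 or 2 or shmiR155HG replicate 1 or 2 (adjusted p = 0.0712, 0.0760, 0.0567 and 0.112). CCL5, at 155.8 and 152.4 CPM, and CCL3L1, at 25.8 and 28.1 CPM, did not pass the threshold (adjusted p = 0.716 and 0.397). CXCL16, the ligand of CXCR6, had 4, 0 and 0 counts in shCtrl and 8, 0 and 10 in shmiR155HG, and RARRES2, which encodes chemerin, had none in any library.

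**Figure D5:**
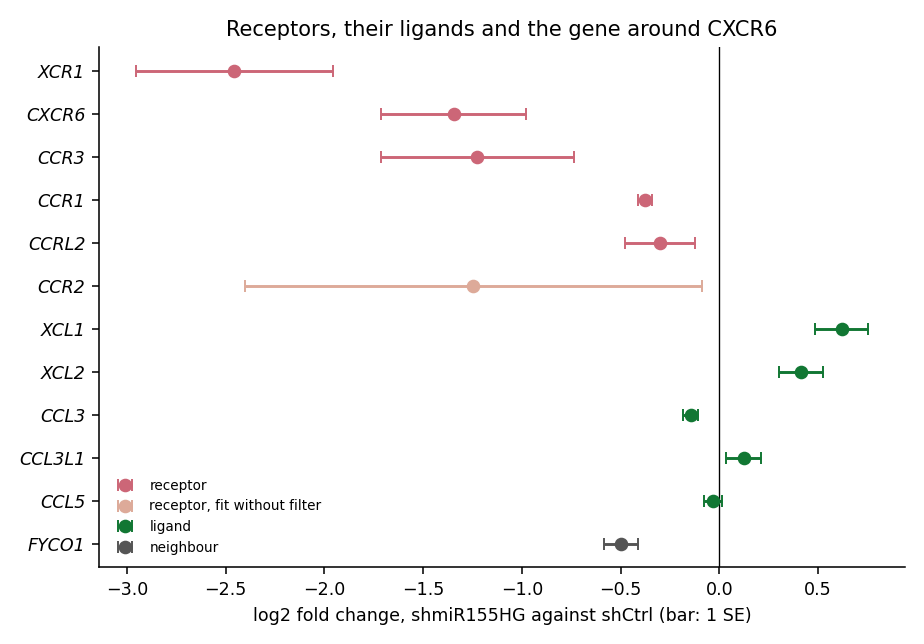
Log2 fold change of shmiR155HG against shCtrl with 1 SE for the receptors (CCR2 from the fit without filter), the 5 ligand genes that passed the filter and FYCO1. All receptors lie left of 0, from −2.46 for XCR1 to −0.30 for CCRL2, while XCL1 and XCL2 lie at 0.62 and 0.41.

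Of 52 genes that act downstream of chemokine receptors, 44 passed the filter, with 6 called lower, 7 higher and 31 not called, beside 8.02% and 7.26% of all genes tested. Their median log2 fold change was 0.0050, against 0.00097 over all genes tested. Among G protein parts and direct effectors, GNG2 (a gamma subunit) fell by 0.34 on the log2 scale, from 371.2 ± 18.7 to 293.0 ± 7.03 CPM (adjusted p = 2.04e-07). PIK3R6, an adaptor of phosphoinositide 3-kinase gamma, fell by 0.63 (12.5 ± 1.18 to 8.12 ± 1.45 CPM, adjusted p = 0.00484), and phospholipase PLCB2 fell by 0.21 (adjusted p = 0.00607).

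The called genes among those of the 44 that end or tune the signal are described next. Over all genes tested 7.26% were called higher and 8.02% lower, and this part of the list was not tested as a set. RGS16, which speeds up GTP hydrolysis by G proteins, rose from 253.3 ± 4.76 to 328.6 ± 8.62 CPM (log2 fold change 0.38 ± 0.036 SE, adjusted p = 1.34e-08). RGS2, of the same family, rose from 4.70 to 7.19 CPM (0.61 ± 0.19 SE, adjusted p = 0.0296). The receptor kinase GRK3 had 25, 8 and 11 counts in shCtrl and 40, 47 and 38 in shmiR155HG (1.56 ± 0.49 SE, adjusted p = 0.0305) and passed the filter only through the shmiR155HG libraries. The call of RGS2 was lost without shCtrl replicate 2 or 3 or shmiR155HG replicate 1 or 3 (adjusted p = 0.0575, 0.129, 0.0940 and 0.102). That of GRK3 was lost without shCtrl replicate 2 or 3 or any shmiR155HG replicate (adjusted p = 0.127, 0.0931, 0.0568, 0.0961 and 0.0641), with no filter (0.0631) and with filterByExpr (0.0782). GRK6, another receptor kinase, fell by 0.15 (162.7 ± 2.65 to 146.3 ± 4.11 CPM, adjusted p = 0.0118), a call lost without shCtrl replicate 2 or shmiR155HG replicate 2 (adjusted p = 0.0584 and 0.0839).

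The called genes among those of the 44 that link receptors to the cytoskeleton and integrins follow. The shares over all genes tested were 7.26% called higher and 8.02% called lower, and this part was not tested as a set either. RAP1A, a small GTPase that activates integrins, rose by 0.23 on the log2 scale (adjusted p = 7.33e-05). DOCK8, an exchange factor for CDC42, rose by 0.21 (adjusted p = 0.000101), and RASSF5, a partner of RAP1, by 0.16 (adjusted p = 0.00208). RASGRP2, an exchange factor for RAP1, rose from 15.1 ± 2.34 to 20.04 ± 2.99 CPM (0.41 ± 0.13 SE, adjusted p = 0.0274), a call lost without shCtrl replicate 1 or 2 or shmiR155HG replicate 3 (adjusted p = 0.0540, 0.176 and 0.213). CDC42, a small GTPase of actin assembly, fell by 0.14 (263.3 ± 5.41 to 238.3 ± 3.83 CPM, adjusted p = 0.00692), and DOCK2, an exchange factor for RAC, by 0.094 (508.8 ± 12.2 to 476.5 ± 4.42 CPM, adjusted p = 0.0476). The call of CDC42 was lost without shmiR155HG replicate 2 (adjusted p = 0.0552), and that of DOCK2 in 10 of 16 alternatives, among them every library left out except shCtrl replicate 1. The call of PLCB2 was lost without shmiR155HG replicate 1 (adjusted p = 0.0581). By the exact test of the study (P under 0.01, fold over 1.2), PLCB2, GRK6, RAP1A, DOCK8, RASSF5, CDC42 and DOCK2 were not called. DOCK2 missed both limits (unadjusted exact test p = 0.0158), and the others missed only the fold. Among 17 chemokine receptors encoded elsewhere in the genome, 7 passed the filter, with a median log2 fold change of −0.0097. Of these, 1 was called lower (CCR6) and 1 higher (CXCR3), beside 8.02% and 7.26% of all genes tested.

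For each receptor that passed the filter, the genes whose log2 CPM followed it most closely over the 6 libraries were listed, out of 9721 genes averaging 5 CPM or more. Those of XCR1 were RIPK2, CRLF3 and APEX2 (Pearson r 0.997, 0.996 and 0.996), and those of CXCR6 were WDR41, PRF1 and MAD2L2 (0.996, 0.993 and 0.993). CCR1 was followed most closely by CLU, NTRK2 and ITGA6 (0.998, 0.998 and 0.998). The lists were ZNF561-AS1, MTBP and DDRGK1 for CCR3 (0.995, 0.989 and 0.988) and POMK, ZNF83 and AQR for CCRL2 (0.996, 0.990 and 0.990). They are the highest of 9721 values over 6 libraries that share the 2 groups, and describe these libraries alone.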

How the data were processed

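RNA of 6 NK-92 libraries was captured on oligo(dT) beads and sequenced. HISAT2 was used for alignment (hg38), and StringTie with prepDE.py3 for quantification against known transcripts. The authors deposited the resulting raw counts per gene. Strandedness and the read length set for prepDE.py3 are not given in the sources used here, so a count may stand for less than 1 read. The receptors and gene lists were chosen with earlier results of these data known.

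Counts were analysed in R 4.3.3. The filter followed the study (2 or more libraries above 1 CPM). The remaining genes were scaled with TMM and tested with the quasi-likelihood test of edgeR 4.0.16 (robust fit, no block, Benjamini-Hochberg adjustment over all genes tested, threshold 0.05). SD is of scaled CPM and SE of the log2 fold change. The exact test of the study (P under 0.01, fold over 1.2), DESeq2 1.42.0, limma-voom 3.58.1, other scalings and filters, halved counts, a replicate block and each library left out were alternatives. The fit was checked on simulated data. Correlations used log2(CPM + 0.5).

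Named were the receptors, MIR155HG, the ligands of XCR1, CXCR6 and CCRL2, genes overlapping a receptor, up to 10 called genes per list by size of fold change, and 3 genes of the closest pattern per receptor. GRK6, CDC42, DOCK2, CCL5, CCL3L1, the upstream neighbours, CCR6, CXCR3 and single cell type markers were named after their values were seen. Sequences came from RefSeq, 3′ regions and positions from GENCODE v44. Shares of peers with a miR-155 site were taken among tested genes with a 3′ region of 0.8 to 1.25 times the length. Proteins were not used here.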

Additional observations from a re-analysis of the deposited data

How the results depend on the processing

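No alternative turned the direction of the 5 receptors that passed the filter (CCR2 and CCR9 were not compared across alternatives), and XCR1 and CCR1 were called lower in every alternative in which they passed the filter. The receptors were selected with these differences known, and the alternatives reuse the same libraries. These results therefore describe the dependence on processing and are no further evidence for the differences. Of the receptors, 3 were called lower in every alternative but 2: without shmiR155HG replicate 2 there were 2, since CXCR6 was lost, and with the filter set at a mean of 5 CPM there was 1, since only CCR1 and CCRL2 were tested. Without shCtrl replicate 3 the 3 were XCR1, CCR1 and, in place of CXCR6, CCR3. No receptor was called higher in any of the 16 alternatives. With each library left out, ligands called lower numbered 0 to 1, ligands called higher 1 to 2, and signalling genes called higher 4 to 7. By the exact test of the study, whose rule also needs a fold over 1.2, 0 ligands were called lower (CCL3 had an unadjusted p of 0.00221 in edgeR and too small a fold), and 2 signalling genes were called lower and 4 higher. Replicate numbers did not pair the libraries: same-numbered libraries deviated with r of −0.013, 0.012 and 0.020. With the replicate block, 3 receptors were called lower, as without it, and signalling genes called lower were 5 rather than 6. Depth limits CCR2, CCR9 and, in shmiR155HG, XCR1.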
